A study of Mus musculus with 11 samples.

Results

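Messenger RNA was compared between E16.5 kidney cells sorted for the nephron progenitor marker Cited1 and E16.5 kidney cells that lacked the progenitor marker Six2. The comparison uses 6 of the 11 libraries of a sequencing study of CFW mice, an outbred stock, 3 of Cited1+ cells and 3 of Six2- cells. The Cited1+ cells came from embryonic kidneys of the genotype Cited1tagRFP/+ at embryonic stage E16.5. The Six2- cells came from kidneys of the same stage and stock with the genotype Six2TGC/+, a transgene in which Six2 regulatory sequence drives a GFP and Cre fusion. They are what remained when Six2+ cells (n = 3) were sorted out, and those Six2+ libraries serve here as the reference for the first progenitor marker. The other 2 libraries, Six2+ cells of Six2TGC/+ kidneys at postnatal day 2, were used only to mark differences between deposited tables. The 2 sorted groups therefore differ in reporter line as well as in marker, and cells that lacked Cited1 in the Cited1tagRFP line are not analysed here. The labels give no gate, purity or number of animals, so p-values measure the spread among libraries, which may be technical.

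The nephron, the filtering unit of the kidney, arises from a cap of mesenchymal progenitors around each tip of the branching ureteric bud. Six2 is the transcription factor that keeps these cells undifferentiated, and Cited1, a transcriptional co-regulator, is known to mark the least committed of them, so that Cited1 goes down before Six2 when a cell is induced to form epithelium. The rest of the embryonic kidney holds interstitial stroma, vessels, blood, ureteric bud, and nephron epithelium that the cap has already produced. The question was whether sorting on the second marker sets the progenitors apart from other kidney cells in the way that sorting on the first does.

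Values are in TPM (length-corrected transcript abundance as a share of the library), obtained by rescaling each deposited library to a total of 1000000 over 24427 genes. The read depth that the low values imply was 22600000 to 29300000 reads in the Cited1+ libraries and 25800000 to 43900000 in the Six2- libraries. The groups lie in different deposited tables, one holding Cited1+ with the P2 Six2+ libraries and one holding both E16.5 Six2 sorts. Table, reporter line and sort cannot be told apart, and a gene is said to split by table where all 5 libraries of the first lie on one side of all 6 of the second. Of the 6 libraries compared, Six2- replicate 3 stood apart in carrying more Six2 (46.3 TPM against 7.96 and 7.66) and more haemoglobin RNA (3.81% of the total against 0.4% and 2.07%). Cited1+ replicate 3 listed 20737 genes above 0, where the others listed 15495 to 17496. Cited1+ replicate 2 differed from its fellows in the X-inactivation RNA Xist (425 TPM against 0.0498 and 0.4) and listed the Y-linked gene Ddx3y at 0 (65.6 and 51.8 in replicates 1 and 3), so these 3 libraries did not all come from the same animals.

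Six2 occupies bases 85662736 to 85688254 of chromosome 17 in GRCm38 (mm10), beside Six3 at 85613608 to 85626191. Cited1 lies on the X chromosome from 102247378 to 102252181, and Slc12a1, which encodes the sodium, potassium and chloride cotransporter of the loop of Henle, on chromosome 2 from 125152510 to 125230002. These are the genes on which the comparison turns, and their 300-base promoter windows, 250 bases before and 50 after the start of a listed transcript (RefSeq, GRCm38.p6), are shown for the contrast between the neighbours Six2 and Six3, the other sort gene and the tubule gene. Capitals mark a TATA box (TATAAA or its reverse complement TTTATA) and a CCAAT box (CCAAT or ATTGG), searched on both strands. The windows are chr17:85688205-85688504 for Six2 (minus strand), chr17:85620584-85620883 for Six3 (plus strand), chrX:102252132-102252431 for Cited1 (minus strand, the first of 3 listed starts) and chr2:125152350-125152649 for Slc12a1 (plus strand). For Six3 and Slc12a1 that start lies inside the gene bounds given above, which span all transcripts.
Six2: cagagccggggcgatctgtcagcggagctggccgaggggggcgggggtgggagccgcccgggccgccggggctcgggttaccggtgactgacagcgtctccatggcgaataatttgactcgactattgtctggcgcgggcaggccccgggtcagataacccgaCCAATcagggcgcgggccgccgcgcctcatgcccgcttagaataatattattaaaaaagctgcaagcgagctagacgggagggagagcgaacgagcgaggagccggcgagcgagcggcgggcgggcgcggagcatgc
Six3: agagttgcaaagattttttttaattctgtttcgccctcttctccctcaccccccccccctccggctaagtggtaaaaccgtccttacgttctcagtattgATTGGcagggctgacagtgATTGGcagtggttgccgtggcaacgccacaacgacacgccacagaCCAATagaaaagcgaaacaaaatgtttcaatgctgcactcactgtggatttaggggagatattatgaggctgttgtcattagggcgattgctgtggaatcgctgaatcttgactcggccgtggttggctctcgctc
Cited1: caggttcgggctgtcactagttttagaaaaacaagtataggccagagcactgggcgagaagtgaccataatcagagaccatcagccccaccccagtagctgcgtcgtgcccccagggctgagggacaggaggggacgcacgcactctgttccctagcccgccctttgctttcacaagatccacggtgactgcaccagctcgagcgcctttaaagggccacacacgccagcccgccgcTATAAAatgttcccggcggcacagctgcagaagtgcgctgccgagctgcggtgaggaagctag
Slc12a1: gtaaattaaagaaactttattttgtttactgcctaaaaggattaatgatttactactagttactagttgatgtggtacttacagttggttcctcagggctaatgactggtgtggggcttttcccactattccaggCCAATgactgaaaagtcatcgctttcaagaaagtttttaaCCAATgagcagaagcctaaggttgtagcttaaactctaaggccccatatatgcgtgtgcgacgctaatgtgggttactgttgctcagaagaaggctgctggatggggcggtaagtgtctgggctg
The Cited1 window held the TATA letters once, which 14.2% of 27025 promoter windows held. The Six2 window held CCAAT letters once, the Slc12a1 window 2 times and the Six3 window 3 times, against at least once in 37.9% of all windows. Bases G and C made up 67.3% of the Six2 window, 59.7% of the Cited1 window and 42.7% of the Slc12a1 window, beside a median of 52.7% over all windows.

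Sorting on Cited1 gave cells rich in the known progenitor genes and poor in stromal, endothelial and blood genes. The sort genes themselves check the labels. Cited1 stood at 566, 584 and 605 TPM in the Cited1+ libraries and at 1.51, 2.32 and 13.7 TPM in the Six2- libraries, and the log2 fold change was 6.88 (SE 0.53). Six2 was not used to sort the Cited1+ cells but defines the Six2- group, so its difference is a description. It stood at 808, 1135 and 807 TPM against 7.96, 7.66 and 46.3 TPM, a log2 fold change of 5.87 (SE 0.56). No Cited1+ library came near a Six2- library for either gene, and the highest Six2- value of both was in replicate 3. Without that library the difference was 7.66 for Cited1 and 6.68 for Six2.

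**Figure D1:**
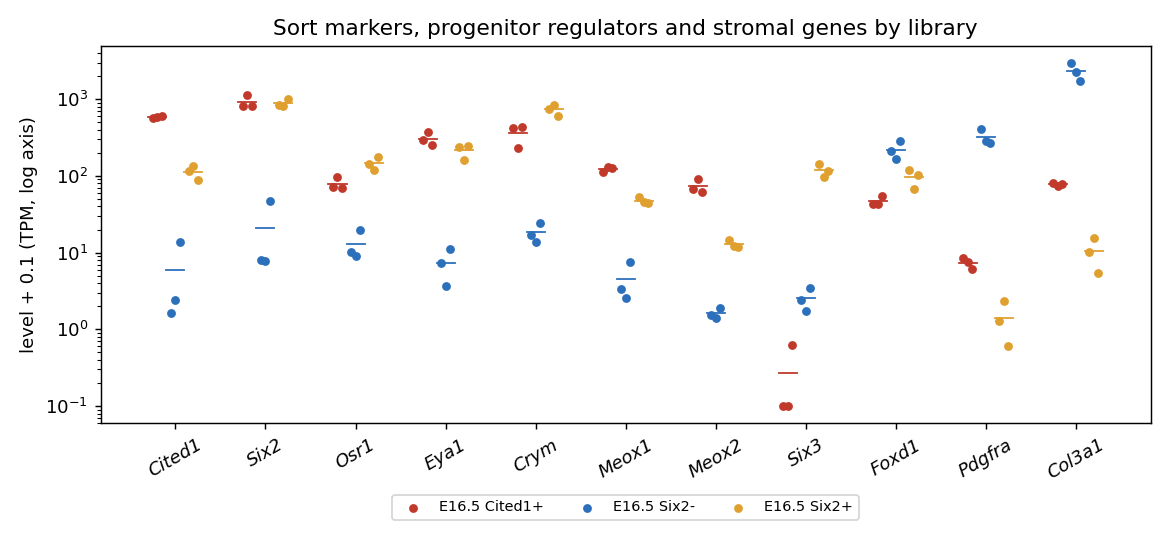
Level of 11 genes in each library of the 3 E16.5 sorts, in TPM with 0.1 added, on a log axis; points are libraries and bars are group means. Six2 overlaps between the progenitor sorts, Cited1 is highest in Cited1+ cells, Six3 is high in Six2+ cells only among these 3 sorts, and the stromal genes Pdgfra and Col3a1 are highest in Six2- cells.

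Set beside the first marker, the level of Six2 was not separated between the progenitor sorts. The Six2+ libraries held 841, 810 and 1018 TPM, and the direct difference, Cited1+ minus Six2+, was 0.03 (SE 0.17, limma adjusted p = 0.922). Cited1 was 115, 133 and 87.2 TPM in Six2+ cells, below all Cited1+ libraries, with a direct difference of 2.40 (SE 0.16, limma adjusted p = 7.96e-06). Cited1 was used to sort the Cited1+ cells, so this difference is a description, and sort, reporter line and table cannot be told apart for it. Osr1, a transcription factor of the early nephrogenic mesoderm on chromosome 12, was 70.7, 96.4 and 68.9 TPM in Cited1+ cells against 10.1, 8.87 and 19.7 TPM in Six2- cells (log2 fold change 2.59, SE 0.27, limma adjusted p = 6.4e-05). It was higher still in Six2+ cells at 141, 121 and 177 TPM, and the direct difference of -0.88 (SE 0.19) passed at a limma adjusted p of 0.0095.

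Among all genes, Cited1+ and Six2- cells differed widely. Of 12661 genes with a mean of at least 2 TPM, 3595 were higher (28.4%) and 2511 lower (19.8%) in Cited1+ cells at a limma adjusted p below 0.05, and 1335 and 1331 of these (10.5% each) by a log2 change of at least 1. The groups did not overlap for 59.8% of genes tested. The median over all genes was 0.12 on the log2 scale, and under median-ratio scaling it was 0.01, with 2909 genes higher and 3178 lower. That scaling moved the share of higher calls from 58.9% to 47.8%, so differences of the size of the shift have no settled direction. Of the higher genes 1214 (33.8%) split by table and of the lower genes 328 (13.1%), leaving 2381 and 2183. The reference comparison, Six2+ against Six2-, gave 1610 higher (13.1%) and 2291 lower (18.6%) of 12330 genes. Its fit left out the pairing of these libraries by replicate number, and with a replicate block 2310 were higher and 2749 lower. The 2 comparisons share the Six2- libraries, so their values are set side by side and the direct test of Cited1+ against Six2+ tells where they differ. That test covered 12089 genes and called 1911 higher (15.8%) and 467 lower (3.86%) in Cited1+ cells, 80.4% of calls on the higher side, while median-ratio scaling gave 1646 and 1466, with 52.9% on the higher side.

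Progenitor genes were higher in Cited1+ cells almost throughout. Of 31 genes on a nephron progenitor list, 30 were tested, 28 were higher and none was lower, where 28.4% of all genes were higher, and the list's median log2 difference was 2.93. Leaving out single libraries gave 27 or 28. In Six2+ against Six2- cells 25 of 29 were higher and none lower (1 lower under median-ratio scaling), with a median of 2.47. Of all genes 13.1% were higher in that comparison. Of the 28 higher genes, 21 did not split by table. The list includes the sort genes and was chosen with earlier results of these data known, so its counts are a description.

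**Figure D2:**
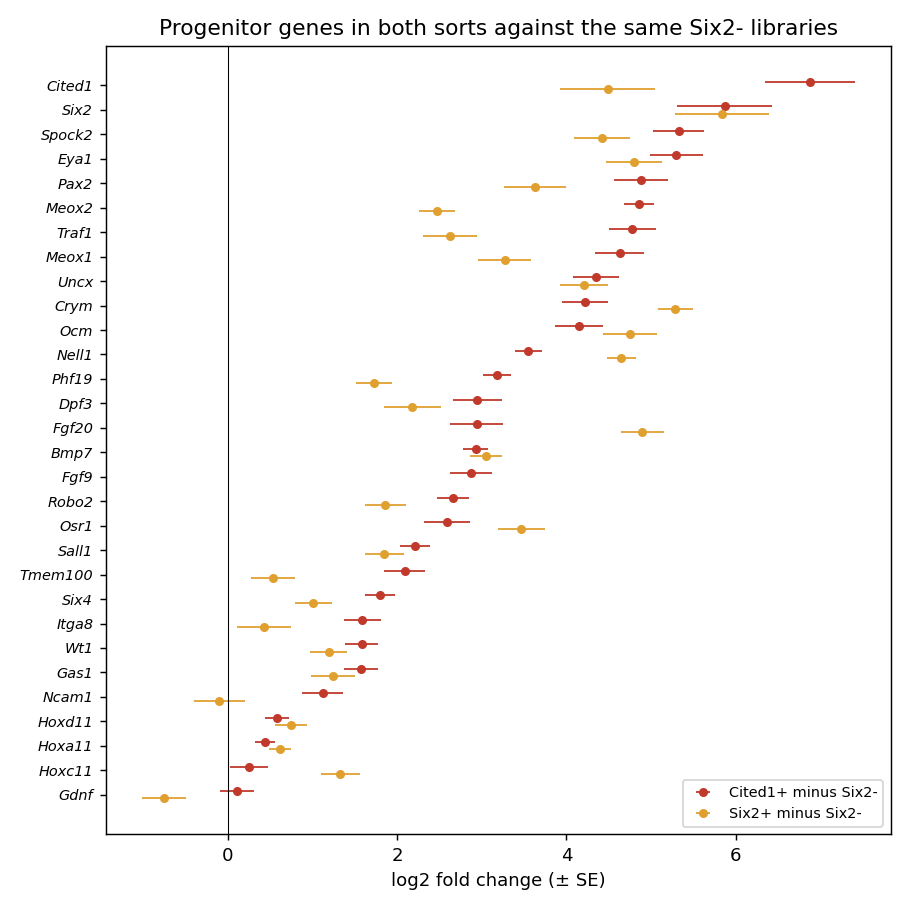
Log2 fold change with SE of the 30 nephron progenitor genes tested, for Cited1+ minus Six2- (red) and Six2+ minus Six2- (yellow); both use the same 3 Six2- libraries. All but Hoxc11 and Gdnf passed the test on the Cited1+ side, and Six2, Uncx and Bmp7 have nearly the same value in both.

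Among them were many transcription factors. Eya1, the phosphatase and transcriptional partner of Six2, was 290, 378 and 251 TPM against 7.29, 3.55 and 11 TPM (log2 fold change 5.30, SE 0.31), although it split by table, with P2 libraries also above both E16.5 Six2 sorts. Meox2, a mesodermal homeobox gene, was 66.6, 90.1 and 62.5 TPM against 1.46, 1.3 and 1.79 TPM, a difference of 4.86 (SE 0.18, limma adjusted p = 2.62e-07). The Six2+ libraries held only 11.9 to 14.7 TPM of Meox2, and the direct difference of 2.40 (SE 0.18) passed at 1.65e-05. Its relative Meox1 showed the same order, at 111 to 130 TPM in Cited1+, 44.4 to 52.6 TPM in Six2+ and 2.44 to 7.44 TPM in Six2- cells, with a direct difference of 1.35 (SE 0.14). The homeobox gene Uncx was high in both sorts (423, 433 and 512 TPM in Cited1+, 419, 353 and 470 TPM in Six2+) against 12.8 to 32.0 TPM in Six2- cells. Pax2, which is needed for the mesenchyme to become epithelium and also marks the ureteric bud, differed by 4.88 (SE 0.32) and split by table.

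Several secreted and signalling genes of the cap were strongly higher too. Spock2, a matrix proteoglycan, was 815, 982 and 714 TPM against 18.1, 12.3 and 33.8 TPM (log2 fold change 5.33, SE 0.30). Fgf1, a growth factor of the fibroblast family, was 57.6 to 83.5 TPM against 1.33 to 1.63 TPM (4.80, SE 0.18), and the exchange factor gene Dock5 was 121 to 146 TPM against 3.32 to 5.75 TPM (4.69, SE 0.18). Traf1, an adaptor of tumour necrosis factor receptors, stood at 88.9, 51.6 and 56.2 TPM against 0.81, 1.16 and 2.35 TPM. Each of these 4 was also higher in Cited1+ than in Six2+ cells by the direct test, by 0.91 for Spock2 (limma adjusted p = 0.0118, and 0.0574 at most when single libraries were left out), 1.43 for Fgf1, 1.60 for Dock5 and 2.15 for Traf1.

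Other progenitor genes were higher in Cited1+ than in Six2- cells but lower than in Six2+ cells. Crym, a thyroid hormone binding protein, was 417, 230 and 436 TPM in Cited1+ cells, 751, 849 and 612 TPM in Six2+ cells and 13.5 to 24.4 TPM in Six2- cells. Its direct difference was -1.07 (SE 0.24, limma adjusted p = 0.012), which rose to 0.0542 in 1 of the fits with a library left out. Fgf20, a growth factor that keeps progenitors alive together with Fgf9, was 10.9, 6.32 and 12.4 TPM in Cited1+ and 35.8, 40.1 and 44.5 TPM in Six2+ cells, a difference of -1.96 (limma adjusted p = 0.000295). Fgf9 had the opposite order, at 6.53, 8.21 and 8.62 TPM in Cited1+ and 0.287 to 0.812 TPM in Six2+ cells, but it split by table. Gdnf, the ligand that draws out the ureteric bud, was not separated from Six2- cells (105, 108 and 73.1 TPM against 72.7, 78.5 and 114 TPM; log2 fold change 0.11, SE 0.20).

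Among genes tested that did not split by table, Six3 gave the widest gap between the markers. This neighbour of Six2, a transcription factor best known from eye and forebrain, was listed at 0 in Cited1+ replicates 1 and 2 and at 0.52 TPM in replicate 3. It stood at 141, 96.8 and 115 TPM in E16.5 Six2+ cells, at 124 and 118 TPM in P2 Six2+ cells, and at 2.34, 1.63 and 3.38 TPM in Six2- cells. All 8 libraries from the Six2TGC line lay above all 3 from the Cited1tagRFP line, including the Six2- cells. The direct difference from Six2+ cells was -6.67 (SE 0.23, limma adjusted p = 2.61e-07), while the mean of Cited1+ and Six2- libraries was too low for Six3 to enter that test. Reporter line and sort cannot be told apart for this gene.

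Genes that mark the first steps away from the progenitor state were called in both directions. On an early nephron commitment list 8 of 25 genes were higher and 11 lower, where 28.4% and 19.8% of all genes were, so the higher share is near that of all genes. The list had a median of -0.12 beside 0.12 for all genes. Wnt4, the signal that converts progenitors to epithelium, was 26.0, 23.4 and 29.2 TPM in Cited1+ cells and 36.7, 36.8 and 23.3 TPM in Six2- cells (-0.27, SE 0.19, limma adjusted p = 0.275). The groups overlapped only through Six2- replicate 3, and without it the difference was -0.48 with a limma adjusted p of 0.0212. In Six2+ cells Wnt4 was far higher, at 176, 144 and 174 TPM, a direct difference of -2.61 (SE 0.15, limma adjusted p = 3.35e-06). Pax8, a paired-box factor of the early epithelium, was 80.9, 114 and 80.6 TPM in Cited1+, 35.4 to 40.5 TPM in Six2- and 123 to 162 TPM in Six2+ cells, and its rise over Six2- cells was 1.26 (SE 0.16). Lef1, a transcription factor of the Wnt pathway that comes up on induction, was 1.76, 3.16 and 3.11 TPM in Cited1+ against 27.5 to 42.5 TPM in Six2- cells (-3.22, SE 0.23), and 6.84 to 8.7 TPM in Six2+ cells.

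Stromal genes were lower in Cited1+ cells, as they were in Six2+ cells. Of 28 interstitial stroma genes tested 25 were lower, where 19.8% of all genes were, with a median of -3.02. In Six2+ cells 26 of 28 were lower, where 18.6% of all genes were, with a median of -4.74. Some members, such as Tbx18 and Twist1, entered both tests only through the Six2- libraries, so the counts are a description. Col3a1, a fibrillar collagen on chromosome 1, was 81.9, 74.3 and 77.8 TPM in Cited1+ cells and 2952, 2246 and 1702 TPM in Six2- cells (-4.83, SE 0.19, limma adjusted p = 2.83e-07). Pdgfra, the growth factor receptor of kidney stroma on chromosome 5, was 8.46, 7.37 and 5.95 TPM against 407, 284 and 272 TPM (-5.27, SE 0.18). No library of one group approached the other for either gene. In these bulk libraries, fewer cells of a type and less RNA per cell cannot be told apart.

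Several stromal genes were higher in the Cited1+ than in the Six2+ cells. Col3a1 was 10.2, 15.2 and 5.35 TPM in Six2+ cells, and the direct difference was 2.91 (SE 0.29, limma adjusted p = 7.95e-05). Pdgfra was 1.17, 2.22 and 0.515 TPM there, with a direct difference of 1.90 (SE 0.28). By the direct test 16 of 26 stromal genes were higher in Cited1+ than in Six2+ cells and 2 were lower, where 15.8% and 3.86% of all genes were. Some members, such as Pdgfra, Rgs5 and Ren1, had a Six2+ mean below 2 TPM. These entered the direct test only through the Cited1+ libraries, so the counts are a description. The summed level of the list was nevertheless similar, 1262 to 1413 TPM in Cited1+ and 1217 to 1495 TPM in Six2+ libraries, against 10068 to 14190 TPM in Six2- libraries. Aldh1a2, the retinoic acid synthesising enzyme, made up 706 to 808 TPM of the Six2+ sum, against 247 to 309 TPM in Cited1+ cells.

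The other stromal members were lower by different amounts. Penk, an opioid precursor, was 16.4 to 26.9 TPM against 574 to 944 TPM (-5.09, SE 0.22), and Ntn1, an axon guidance ligand, 11.7 to 14.9 TPM against 288 to 556 TPM (-4.67, SE 0.24). Foxd1, the factor that defines stromal progenitors, was 42.8, 43.3 and 54.0 TPM against 208, 167 and 285 TPM (-2.18, SE 0.19), a smaller step, and it split by table, with P2 Six2+ cells lower still. Meis2 and Mcam were called higher, by 0.53 and 0.61, but neither passed under median-ratio scaling or in 4 of the 6 fits that left out a library. Outside the list, the largest falls included the matrix protein Ecm1 (7.15 to 11.3 TPM against 505 to 715 TPM; -5.93, SE 0.18), the angiotensin receptor Agtr2 (-5.09, SE 0.27), the repressor Hic1 (-4.99, SE 0.15) and the imprinted Notch-family ligand Dlk1 (-4.91, SE 0.17).

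**Figure D3:**
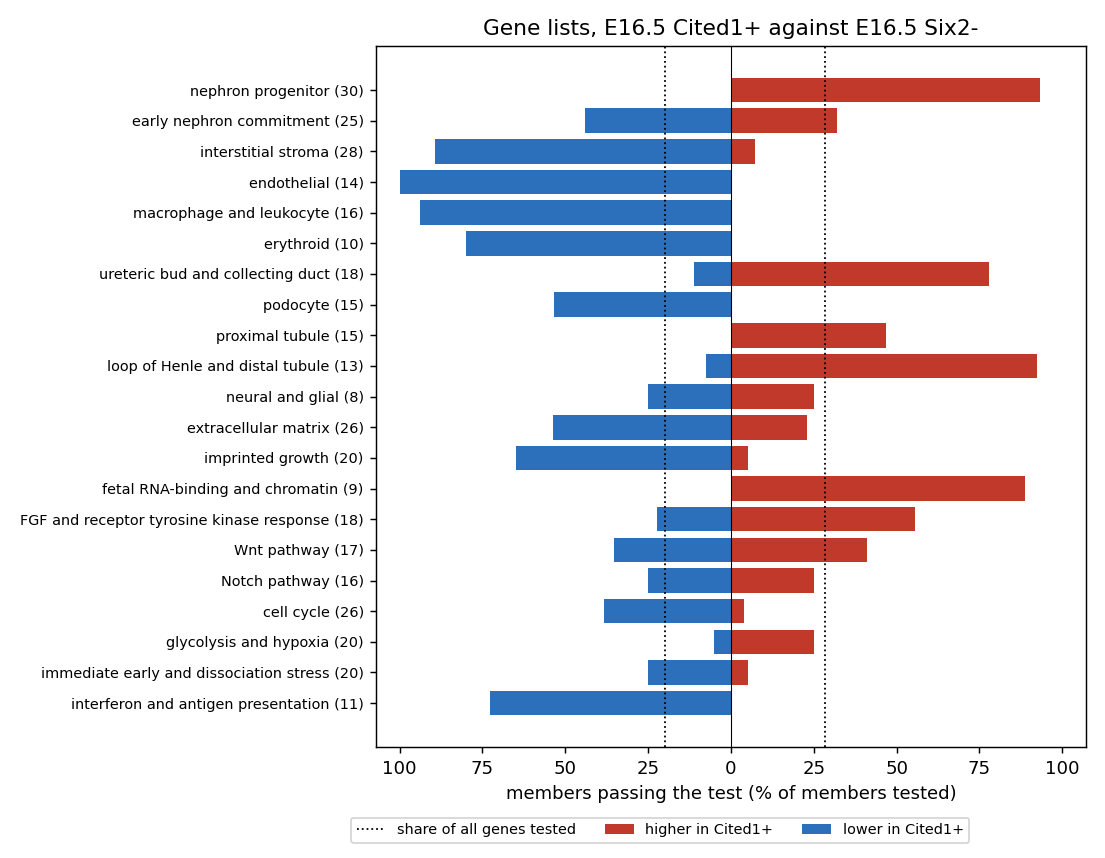
Share of tested members of 21 gene lists that were higher (right, red) or lower (left, blue) in Cited1+ than in Six2- cells; the number tested stands in brackets and dotted lines mark the shares among all genes, 28.4% higher and 19.8% lower. Progenitor, loop and duct lists reach to the right and stromal, endothelial and blood lists to the left.

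Vessel and blood cell genes were lower as well. Of 17 endothelial genes 14 were tested and all 14 were lower, where 19.8% of all genes were, with a median of -2.10. The list summed to 44.6 to 89.5 TPM in Cited1+, 192 to 339 TPM in Six2- and 30.3 to 42.0 TPM in Six2+ libraries. Emcn, an endothelial surface mucin, was 14.4, 4.2 and 3.93 TPM against 63.1, 62.9 and 24.9 TPM (-2.69, SE 0.47). Of 16 macrophage and leukocyte genes 15 were lower, among them the lysozyme gene Lyz2 (0.928 to 2.48 TPM against 77.3 to 85.2 TPM; -4.88, SE 0.23). The sums of that list were 31.0 to 54.8 TPM in Cited1+ and 354 to 460 TPM in Six2- libraries. Most of its tested members, and some endothelial ones, had a Cited1+ mean below 2 TPM. These entered the test only through the Six2- libraries, so the counts of both lists are a description. No defining member of either list was at 0 in all Cited1+ libraries.

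Haemoglobin genes were lower in Cited1+ cells, with a wide spread on the other side. Hbb-bt was 21.8, 10.5 and 25.2 TPM against 316, 1586 and 2588 TPM (-5.84, SE 0.66, limma adjusted p = 0.000111), and Hbb-b2 carried identical values, so near-identical copies were not resolved. Of 10 erythroid genes 8 were lower, where 19.8% of all genes were. The 8 include both Hbb-bt and Hbb-b2. They also include Hbb-y (0.618, 0.0 and 0.0 TPM against 5.16, 1.26 and 95.6 TPM), which entered the test only through the Six2- libraries, so the count is a description. The sum of the list ran from 4009 to 38542 TPM among Six2- libraries, and replicate 3 was the highest. The share that red cell RNA takes of a library lowers all its other values, and its part in the differences was not tested.

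Tubule and duct genes differed between the markers. Genes of the loop of Henle, distal tubule and collecting duct were higher in Cited1+ than in Six2- cells. In Six2+ cells most duct genes tested were lower. Only 3 loop and distal genes were tested in Six2+ against Six2- cells, with 1 higher and 2 lower. The loop and distal list summed to 284 to 359 TPM in Cited1+, 67.9 to 81.5 TPM in Six2+ and 20.9 to 31.4 TPM in Six2- libraries. The duct list summed to 569 to 662 TPM, 217 to 300 TPM and 151 to 251 TPM in that order. On the loop of Henle and distal tubule list 12 of 13 genes were higher and 1 was lower, where 28.4% and 19.8% of all genes were, with a median of 3.01, though 8 of the 13 split by table and the other 5 gave 4 higher and 1 lower. On the ureteric bud and collecting duct list 14 of 18 were higher and 2 lower, with a median of 1.65 (10 and 1 among those that did not split by table), and 2 of 13 were higher and 8 lower in Six2+ cells, where 13.1% and 18.6% of all genes were. The direct test found 12 of 13 loop and distal genes and 14 of 17 duct genes higher in Cited1+ than in Six2+ cells and none lower, where 15.8% and 3.86% of all genes were. Under median-ratio scaling 12 and 13 were higher and 1 lower in each list. Several members, such as Slc12a1 and Aqp2, entered the tests of Cited1+ cells only through the Cited1+ libraries, so the counts of both lists are a description.

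Slc12a1 had the largest difference of these. It was 95.2, 88.7 and 120 TPM in Cited1+ cells and 1.12, 0.518 and 0.289 TPM in Six2- cells (log2 fold change 5.98, SE 0.22, limma adjusted p = 2.42e-07). The Six2+ libraries lay at 0.562, 1.69 and 0.0 TPM, and the P2 libraries at 19.9 and 1.49 TPM, so no E16.5 library of the other sorts came within reach. Umod, the uromodulin secreted by the thick ascending limb, was 4.5, 8.05 and 20.3 TPM against 0.0399 to 0.272 TPM. The potassium channel gene Kcnj1 was 8.71 to 11.7 TPM against at most 0.125 TPM. Both split by table, and the spread among Cited1+ libraries was wider for Umod. Slc12a1, Umod and Kcnj1 entered the test against Six2- cells only through the Cited1+ libraries.

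**Figure D4:**
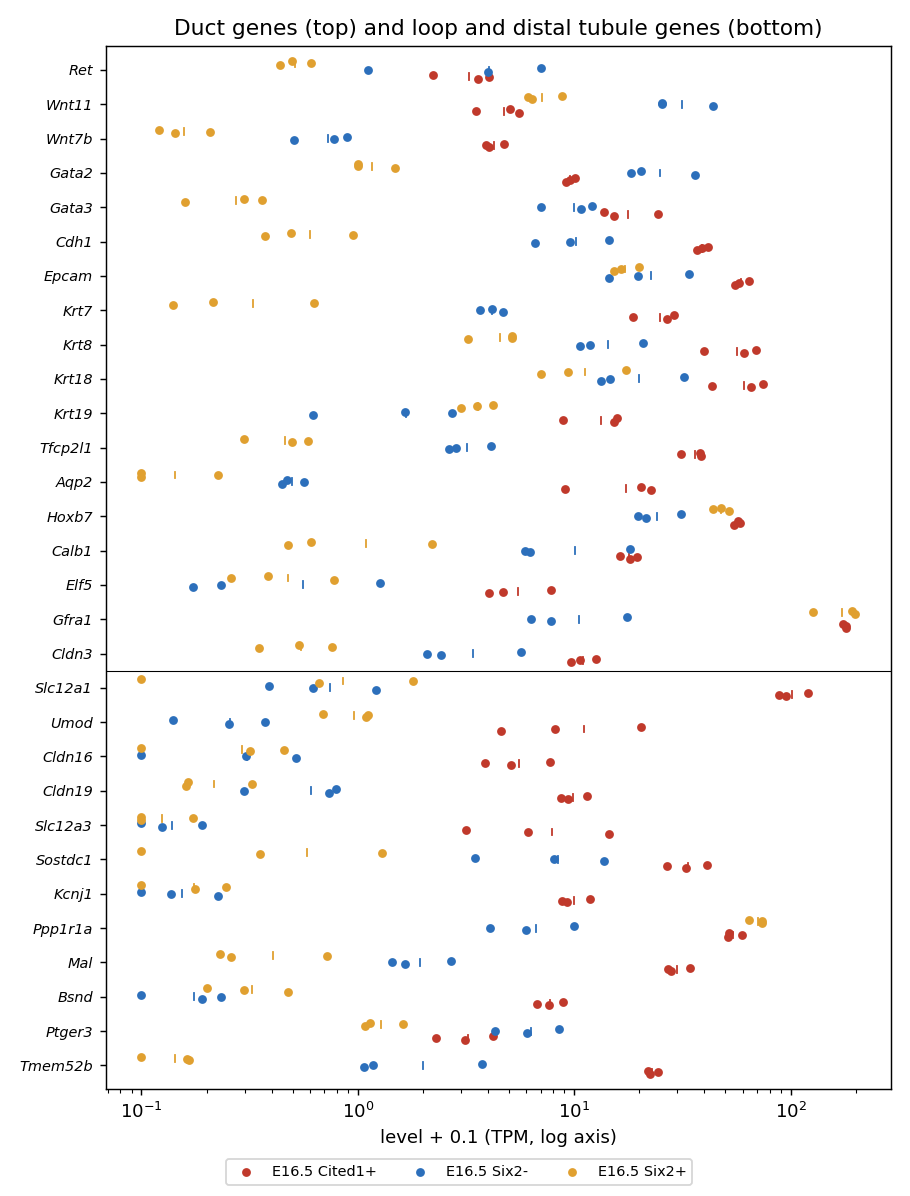
Level of the 18 duct genes (above the line) and 12 of the 13 loop and distal tubule genes (below it) in each E16.5 library, in TPM with 0.1 added, on a log axis; points are libraries and bars are means. For most genes the Cited1+ libraries lie to the right of both other sorts, while Wnt11, Gata2 and Ptger3 are highest in Six2- cells.

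Among the duct genes, cadherin, keratin and collecting duct genes were higher. Cdh1, epithelial cadherin, was 36.9, 38.7 and 41.4 TPM in Cited1+ cells, 6.48, 9.44 and 14.4 TPM in Six2- cells and 0.272 to 0.849 TPM in Six2+ cells (1.91 over Six2-, SE 0.24). The keratins Krt7, Krt8 and Krt18 were higher by 2.32, 1.93 and 1.64, and Tfcp2l1, a transcription factor of the collecting duct, by 3.18 (31.1 to 38.6 TPM against 2.53 to 4.02 TPM). Aqp2, the water channel of the collecting duct, was 22.6, 9.01 and 20.3 TPM against 0.347 to 0.465 TPM and split by table. Other members of the list differed in direction. Wnt11, a signal of the ureteric bud tip, was lower in Cited1+ cells at 3.43 to 5.48 TPM against 25.3 to 43.5 TPM (-2.50, SE 0.24) and split by table, and Ret, the tip receptor for Gdnf, overlapped between groups (2.12 to 3.93 TPM against 1.01 to 6.94 TPM). Gfra1, the co-receptor, was 175 to 181 TPM against 6.19 to 17.5 TPM, and in Six2+ cells it was 127 to 198 TPM (direct difference 0.08, limma adjusted p = 0.789).

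On the proximal tubule list fewer genes were higher, and on the podocyte list the calls were on the lower side. Of 15 proximal tubule genes 7 were higher and none lower (6 and 1 under median-ratio scaling), where 28.4% and 19.8% of all genes were, with a median of 0.55. Without the 3 that split by table, 4 of 12 were higher, near the share of all genes. In Six2+ against Six2- cells all 10 tested were lower, where 18.6% of all genes were. Some of these, such as Hnf4a, entered that test only through the Six2- libraries. Cdh16, the cadherin of kidney tubules, was 78.1, 65.1 and 83.3 TPM in Cited1+, 16.7, 16.2 and 27.1 TPM in Six2- and 0.963 to 3.10 TPM in Six2+ cells. Hnf4a, the proximal tubule regulator, was 7.55 to 8.11 TPM in Cited1+ and 9.26 to 11.7 TPM in Six2- cells (-0.38, limma adjusted p = 0.0862), against 0.0784 to 0.257 TPM in Six2+ cells. Of 15 podocyte genes none was higher and 8 were lower, while without Six2- replicate 1 there were 2 higher and 7 lower. Podxl, a sialoprotein of the podocyte surface, was 14.3, 8.35 and 15.7 TPM against 137, 57.7 and 26.5 TPM (-2.18, SE 0.49).

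Of 11659 genes tested in all 3 comparisons, 48 passed in opposite directions in the 2 sorts and also in the direct test, a count given as a description because both sorts are set against the same libraries. Of these 44 were higher in Cited1+ and lower in Six2+ cells, 4 were the reverse, and 14 split by table. The 4 of the reverse kind were Notum, Vegfc, Bmp2 and Plk2. Notum, a secreted inhibitor of Wnt signalling and itself a Wnt target, was 1.14, 1.22 and 1.85 TPM in Cited1+, 8.51 ± 7.26 TPM (SD, n = 3) in Six2-, with replicate 1 the highest and replicates 2 and 3 at 6.82 and 2.24 TPM, and 25.3, 19.3 and 25.9 TPM in Six2+ cells. Its call against Six2- cells (-1.68, SE 0.51, limma adjusted p = 0.0235) was lost in 4 of the 6 fits with a library left out, whereas the direct difference of -3.35 (SE 0.21) was kept in all.

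On the lists of growth factor, Wnt and Notch signalling some genes were higher and some lower, where 28.4% and 19.8% of all genes were. On a fibroblast growth factor response list 10 of 18 genes were higher and 4 lower, with a median of 0.71. Il17rd, a feedback inhibitor, was 66.3 to 69.5 TPM against 7.08 to 9.38 TPM (2.93, SE 0.14) and Shisa2 was 155 to 165 TPM against 9.37 to 13.4 TPM (3.65, SE 0.15), and by the direct test neither was separated from Six2+ cells (0.34, limma adjusted p = 0.311, and 0.12, limma adjusted p = 0.567). The target genes Etv4 and Etv5 were higher by 2.54 and 1.28, while the inhibitors Spry1 and Spry2 were lower (-0.79 and -0.92). On the Wnt list 7 of 17 were higher and 6 lower. Rspo1, a ligand that potentiates Wnt signalling, was 161 to 189 TPM against 8.17 to 17.5 TPM (3.88, SE 0.24), whereas Dkk1, a secreted inhibitor, was 1.71 to 2.91 TPM against 50.3 to 56.6 TPM (-3.98, SE 0.18). The Notch list gave 4 higher and 4 lower of 16, near the shares of all genes, among them the target gene Hey1 (39.7 to 43.1 TPM against 15.3 to 28.7 TPM; 1.05, SE 0.21).

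On the lists of matrix and imprinted genes more members were lower than higher in Cited1+ cells, and on that of fetal RNA-binding genes more were higher, where 28.4% of all genes were higher and 19.8% lower. Of 26 extracellular matrix genes 14 were lower (12 to 16 when single libraries were left out) and 6 higher. Col2a1, the cartilage collagen, was 241, 193 and 262 TPM against 5.74, 6.61 and 31.4 TPM (4.28, SE 0.50), and Vcan, a large proteoglycan, 451 to 623 TPM against 94.8 to 158 TPM (2.25, SE 0.21). Col6a1 was 11.7 to 14.6 TPM against 284 to 455 TPM (-4.66, SE 0.18). Lama5, a laminin chain of mature basement membrane, was higher by 2.59 in Cited1+ cells (75.2 to 111 TPM against 11.8 to 16.6 TPM) and 10.7 to 27.7 TPM in Six2+ cells, with a direct difference of 2.40. Of 20 imprinted genes 13 were lower and 1, the growth factor adaptor Grb10, was higher (1109 to 1342 TPM against 503 to 621 TPM; 1.14, SE 0.13). Of 9 fetal RNA-binding and chromatin genes 8 were higher, among them the architectural factor Hmga2 (130 to 220 TPM against 42.4 to 67.8 TPM; 1.71, SE 0.22).

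The genes that split by table limit what can be read from the higher side. Over genes tested, 1384 were higher and 470 lower in the table that holds Cited1+ and P2 cells, 14.6% in all. Mrgpra6 and Gm12338, both transcribed pseudogenes in the RefSeq annotation, were listed at 0 in all 6 libraries of the other table. Mrgpra6 was 77.6, 48.9 and 744 TPM in Cited1+ and 38.2 and 59.0 TPM in P2 cells, and Gm12338 was 24.3 to 29.7 TPM in Cited1+ and 25.6 and 45.9 TPM in P2 cells. Rpl14-ps1, a ribosomal protein pseudogene, was 106 to 126 TPM in Cited1+ cells and listed at 0 in 5 of the 6 libraries of the other table. Gm12338 and Rpl14-ps1 were named after their values were seen. In the lower direction Ror2, a Wnt receptor kinase, was 6.12 to 7.42 TPM in Cited1+ and 15.8 to 30.1 TPM in Six2+ cells.

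**Figure D5:**
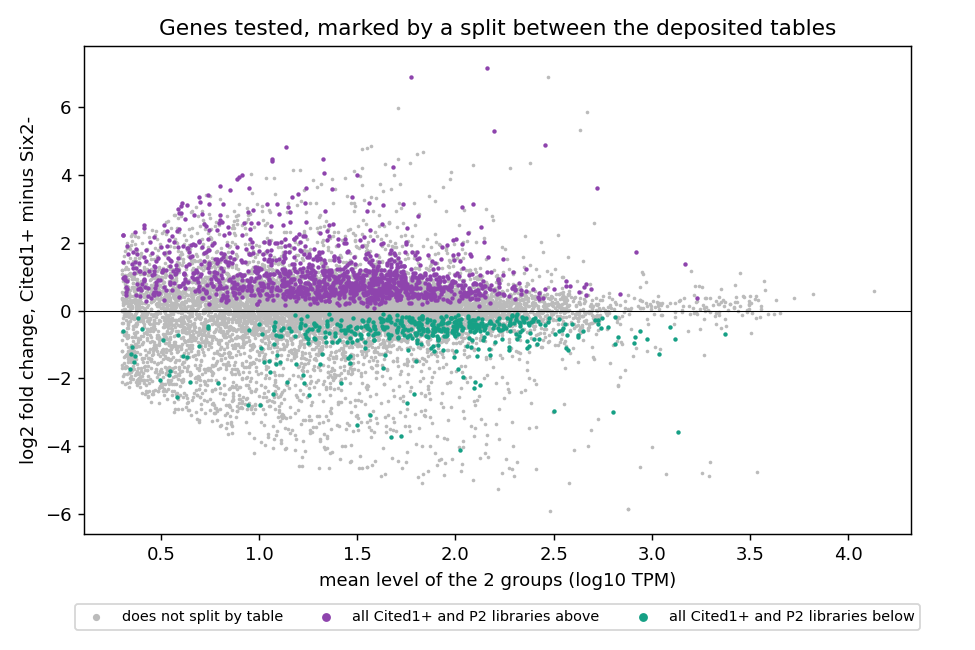
Log2 fold change of Cited1+ minus Six2- against the mean level (log10 TPM) for the 12661 genes tested, with genes that split by table in purple (above) and green (below). By the definition of a split, purple genes lie above 0 and green genes below it. The falls below -3 are mostly unmarked, but a gene that is also low in E16.5 Six2+ cells can hardly be marked green.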

How the data were processed

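Per the labels' protocols, sorted cells were extracted with a Qiagen RNeasy micro kit and sequenced as Kapa stranded mRNA libraries. Tools listed in the submitters' processing notes are TopHat2, Partek and bcl2fastq 2.17, with mm10 as build. How reads were counted, the annotation and the use of strand are not given in the sources used here, so overlapping genes and near-identical copies are uncertain.

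The authors deposited the values as TPM, but the deposited values scale as RPKM. They summed to 329715.6 to 433447.3 in the 9 E16.5 libraries, while sums weighted by transcript length were 0.983 to 1.078 times the sum that RPKM implies, in both tables. Each library was rescaled to 1000000, which gives TPM on one scale for both tables, and tests were made across them. A total of 27 rows per table that carried a date in place of a symbol (0.125% to 0.215% of the values) were left out.

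Group membership follows the labels. Values entered as log2(value + 1) if the gene's mean in the libraries compared reached 2 TPM. The test was limma's (version 3.58.1, R 4.3.3), trended by mean level, two-sided, with Benjamini-Hochberg adjustment over all genes tested and a threshold of 0.05. Fold changes are on that scale and understate the change of low genes. The fit was tested on simulated data. Alternatives changed the scaling, pseudocount (0.1, 5), filter, trend, libraries and replicate block. Sequences, gene positions and promoters are RefSeq's, for GRCm38.p6.

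The members and the 22 gene lists were chosen with earlier results of these data known. Genes named were 14 fixed markers, the 8 largest rises and falls that did not overlap or split by table with a mean of at least 10, up to 2 passing genes per list and direction, up to 6 that passed in opposite directions in the sorts, and 4 per direction that split by table. Other list members were named after their values were seen, and some genes are not reported here.

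Numbers in the labels were checked for pairing from deviations from group means. Same-numbered Six2+ and Six2- libraries correlated at 0.45, 0.42 and 0.39, so the numbers pair them, and with a replicate block 2310 genes were higher and 2749 lower. The design kept the unblocked fit.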

Additional observations from a re-analysis of the deposited data

Results flagged for a closer look

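A total of 10 genes were named by a rule that required opposite directions in the 2 sorts. The rule also required that the difference itself, Cited1+ minus Six2+, passed the limma test, so that pass is not a further result. On the higher side Cdh16 differed by 4.91, Cldn4 by 4.84, Cdh1 by 4.75, Sostdc1 by 4.60, Fxyd2 by 4.53 and Ly6a by 4.46 on the log2 scale. Cldn4, a claudin of tight junctions in the collecting duct, was 44.8, 28.7 and 57.5 TPM in Cited1+, 2.89, 2.97 and 5.87 TPM in Six2- and 0.151 to 0.891 TPM in Six2+ cells. Sostdc1, a secreted antagonist of Bmp and Wnt signals, was 32.8, 26.8 and 41.1 TPM, 13.7, 8.0 and 3.37 TPM and 0.0 to 1.19 TPM in the same order. Fxyd2, a subunit of the sodium pump of tubules, split by table.

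On the lower side Notum differed by -3.35, Vegfc by -2.30, Bmp2 by -2.01 and Plk2 by -0.94. Vegfc, a growth factor of lymphatic vessels, was 5.96, 6.85 and 8.14 TPM in Cited1+, 17.6, 13.5 and 12.5 TPM in Six2- and 37.6 to 39.3 TPM in Six2+ cells. Bmp2 was 2.43, 2.44 and 3.35 TPM, 6.77, 8.19 and 7.88 TPM and 10.1 to 19.4 TPM in that order. Its call in Six2+ against Six2- cells was lost in 5 of the 6 fits with a library left out, where the adjusted p reached 0.11. The call of Plk2 against Six2- cells was lost in 5 of the 6 such fits, with an adjusted p of up to 0.123, and Plk2 split by table. The call of Notum in Six2+ against Six2- cells was lost in 4 of these 6 fits, with an adjusted p of up to 0.101.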

How the results depend on the processing

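Of 97 named genes tested in Cited1+ against Six2- cells, 86 stayed on the same side of the threshold under each of up to 15 alternatives, while 59 values lost the call, 1 gained it (Wnt4) and none reversed. Calls were lost for genes that include Lhx1, Hey2, Mcam, Mcm7, Meis2, Notum, Npy, Plk2 and Ptger3. In the direct test 49 of 60 and in Six2+ against Six2- cells 68 of 73 named genes stayed on their side.

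Leaving out genes that split by table took the 3595 higher genes of the main comparison to 2381, and single libraries left out gave 2563 to 3684 higher and 2029 to 2623 lower. The direct test moved most. Its higher calls were 1259 with no rescaling, 1005 at a mean of at least 10, 1091 without genes that split by table and 899 to 2273 with single libraries left out, 958 without Cited1+ replicate 1 and 899 without replicate 2. Its lower calls were 1131 with no rescaling, 1466 under median-ratio scaling, 286 with no filter, 300.0 at a mean of at least 10, 306 without genes that split by table and 215 to 420.0 with single libraries left out (215 and 225 without Cited1+ replicates 1 and 2, 261 without Six2+ replicate 1). Six2+ against Six2- gave 1376 lower calls at a mean of at least 10 and 920.0 to 1913 higher calls with single libraries left out, 920.0 without Six2- replicate 2 and 1059 without Six2+ replicate 1. The causes were not tested.

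Cited1+ and Six2- libraries share only a replicate number, and correlations of the same-numbered libraries were -0.04, 0.02 and 0.09. With a replicate block 3589 genes were higher and 2527 lower. For Cited1+ and Six2+ libraries they were -0.13, -0.17 and -0.10, and the block gave 1485 higher and 314 lower.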

Other observations

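Cell cycle genes were in part lower in Cited1+ than in Six2- cells. Over all genes 28.4% were higher and 19.8% lower. Of 26 genes 10 were lower and 1 higher (Mcm7, 0.37), and under median-ratio scaling 14 were lower and none higher, with 6 lower without Cited1+ replicate 1 and up to 10 without other libraries. The cyclin gene Ccne1, which starts DNA replication, was 42.1, 49.4 and 51.0 TPM against 112, 97.1 and 117 TPM (log2 fold change -1.18, SE 0.13, limma adjusted p = 9.25e-05) and split by table. Cdk1, the mitotic kinase, was 75.0, 71.0 and 85.8 TPM against 161, 158 and 168 TPM (-1.07, SE 0.12) and split by table too. Mki67, the usual proliferation marker, was 196 to 326 TPM against 166 to 202 TPM and was not called (0.35, SE 0.19).

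Of 20 genes that respond to tissue dissociation 1 was higher and 5 were lower, the lower share being near that of all genes. Fos, an immediate early gene, was 971, 728 and 1617 TPM against 621, 840 and 1702 TPM. Egr1, a growth factor responsive zinc finger gene, was 1961, 2442 and 2135 TPM against 837, 809 and 1308 TPM (1.18, SE 0.20), and 355 to 907 TPM in Six2+ cells. The interferon and antigen presentation list had 8 of 11 genes lower, where 19.8% of all genes were. Among them was the membrane protein Ifitm3 (8.33 to 15.5 TPM against 197 to 223 TPM; -4.04, SE 0.20).

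Glycolysis and hypoxia genes gave 5 higher and 1 lower of 20, the higher share being near that of all genes, with 3 higher without Cited1+ replicate 1 or Six2- replicate 2 and 8 without Six2- replicate 3. The lower gene was the glucose transporter Slc2a3 (2.29 to 3.35 TPM against 22.0 to 32.7 TPM; -2.92, SE 0.20). The neural and glial list, with 8 genes tested, gave 2 higher and 2 lower, near the shares of all genes (28.4% and 19.8%). Elavl4, a neuronal RNA-binding protein, was 40.4, 50.9 and 32.5 TPM in Cited1+ against 0.915 to 3.25 TPM in Six2- cells (4.05, SE 0.32) and 7.67 to 13.1 TPM in Six2+ cells, and split by table. The neuronal genes Tubb3 and Th were high in Six2- replicate 1 alone, at 51.5 and 28.6 TPM against at most 1.89 TPM in replicates 2 and 3. Of 5 sex-linked genes none was called by limma, and without Cited1+ replicate 2 there were 3 higher and 1 lower.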
